A study of Mus musculus with 12 samples.

Results

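The transcripts described here were off in resting RAW264.7 cells, a mouse macrophage line, and on after lipopolysaccharide (LPS), a component of the outer membrane of Gram-negative bacteria. They were detected by 161 probes of the 58867 on the array that carried no lincRNA name and no outlier flag. A probe was a member when it was not well above background on any of the 3 DMSO arrays, was well above background on all 3 LPS arrays, and had a mean log2 intensity at least 3 higher with LPS than with DMSO. The group DMSO was RAW264.7 cells given the solvent for 24 h, and the group LPS was given 100 ng/ml LPS for 6 h. The group AdipoAI was given AdipoAI, an orally active agonist of the adiponectin receptors, for 24 h, and the group AdipoAI+LPS was given AdipoAI over 24 h, followed by LPS at the same dose and for the same 6 h. Each group had 3 arrays, and the labels do not say whether the cells of the group LPS received solvent first. All 4 groups are 1 cell line, which limits them as a model of macrophages in tissue.

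LPS is sensed on macrophages by Toll-like receptor 4. The receptor signals through adaptor proteins to NF-kB, MAP kinases and interferon regulatory factors, and genes that are silent in resting cells are then transcribed, among them cytokines, chemokines and interferon-stimulated genes. Adiponectin is a hormone of fat cells with anti-inflammatory actions on macrophages. The study asked how AdipoAI given before LPS changes the RNAs of these cells. Each probe is known here only by an identifier of the array's maker, with no gene matched to it, so each member is described by its values and not by its function.

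Each array had between 29298 and 32969 probes well above background, and no spot was saturated. The arrays were scanned in 2 scans. AdipoAI 1 and 2 were scanned with all DMSO and LPS arrays (8 arrays), whereas AdipoAI 3 was scanned with the 3 arrays of AdipoAI+LPS (4 arrays). LPS and AdipoAI+LPS are therefore never compared within a scan, and AdipoAI is the 1 group present in both.

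The rule used the DMSO and LPS arrays, so the values of those groups are a description. The mean log2 difference between LPS and DMSO was between 3.05 and 12.04, with a median of 4.07. It was under 4 for 77 members, from 4 to under 6 for 44 and 6 or more for 40. Counting DMSO at its bound, the lowest signal that could be called on each array, LPS was at least 2.02-fold to at least 1300-fold higher, with a median of at least 6.97-fold. The members nearest to the limit had differences of 3.06, 3.05 and 3.05, and the probes just under it had 2.99, 2.99 and 2.99. In all, 392 probes had the same flags (1.57% of the 24929 that were off on all DMSO arrays), and the 231 of them with a difference under 3 are used below for comparison. All 161 members passed the filter on dim probes because the rule required it, and none was well above background on all 12 arrays. All 161 had identifiers of the ASMM10P series, to which 57931 of the 58867 probes belong.

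The median over the 161 members was 1.27, 1.29 and 1.15 on the log2 scale on the DMSO arrays and 1.41, 1.45 and 1.45 on the AdipoAI arrays. It was 6.11, 6.03 and 6.20 on the LPS arrays and 5.42, 5.26 and 5.04 on the AdipoAI+LPS arrays. The AdipoAI arrays lay just above the DMSO arrays near the floor of the scale, and all 3 AdipoAI+LPS arrays lay below all 3 LPS arrays. As the mean of the array medians, the levels were 1.24 ± 0.076 with DMSO, 1.44 ± 0.023 with AdipoAI, 6.12 ± 0.084 with LPS and 5.24 ± 0.19 with AdipoAI+LPS (SD, n = 3 each). The replicates were closest for LPS, where the median SD of a member was 0.20, against 0.26 for AdipoAI+LPS. Most DMSO and AdipoAI values lay below the level at which a spot was called, so small differences between these groups are not differences in measured RNA. In RNA from whole cultures, fewer cells expressing a transcript and less RNA per cell cannot be told apart.

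**Figure D1:**
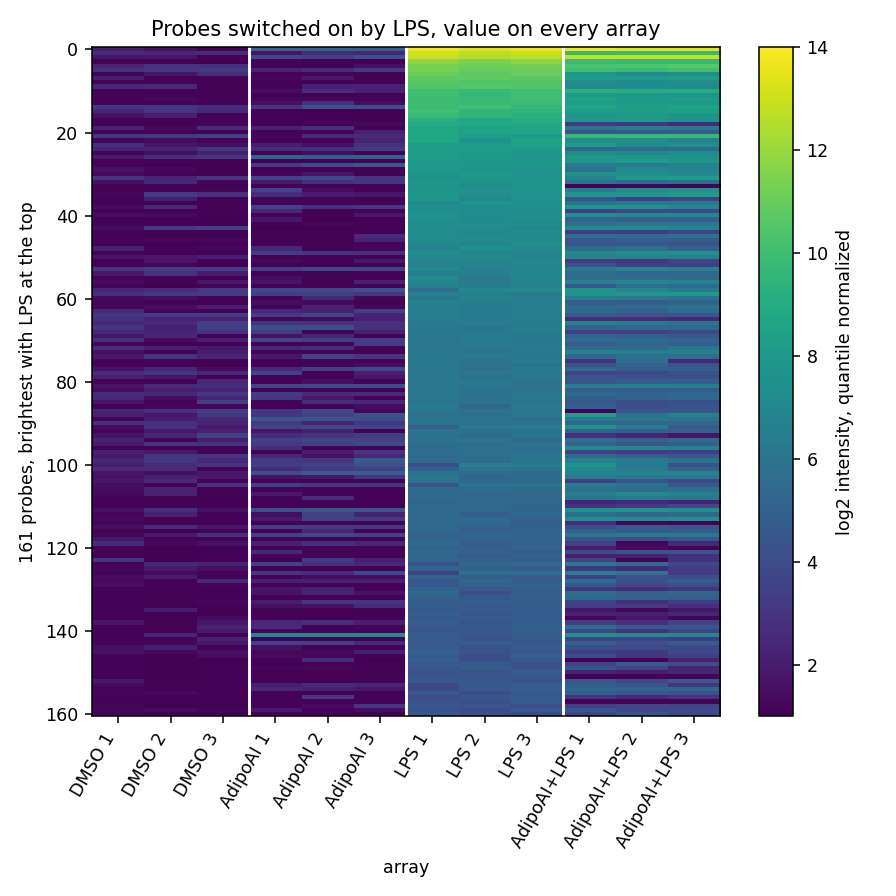
Each row is 1 of the 161 probes and each column 1 of the 12 arrays; colour is the quantile-normalized log2 intensity, and rows are ordered by the mean with LPS. The DMSO and AdipoAI columns are dark for nearly all probes, and the AdipoAI+LPS columns are darker than the LPS columns for most.

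AdipoAI alone left most members off. With AdipoAI, 132 of the 161 were not well above background on any array, 15 were on 1 array, 6 on 2 and 8 on all 3. These 8 are 4.97% of the members, against 0.333% of the 24929 probes that were off on all DMSO arrays. Of the 231 comparison probes with a smaller LPS response, 18 (7.79%) were on with AdipoAI on all 3 arrays, a share no smaller than that of the members. On 1 or more AdipoAI arrays, 29 members (18.0%) were on, against a background of 4.98%. By array, 13, 20 and 18 members were on for AdipoAI 1, 2 and 3, so the array of the second scan lay within the range of the other two.

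The 8 members that came on with AdipoAI alone had AdipoAI levels between 3.91 and 7.20 on the log2 scale, with a median of 4.55. Every AdipoAI array was above every DMSO array for all 8, as for 15.9% of all probes tested. The 8 were picked by flags, off with DMSO and on with AdipoAI, that favour this, so it is a description. AdipoAI was at least 1.57-fold to at least 15.3-fold higher than DMSO. For 7 of the 8 the level with AdipoAI stayed below that with LPS. All 8 were on with AdipoAI+LPS on all 3 arrays, as were 95.0% of the 28052 probes on all 3 LPS arrays. In LPS vs AdipoAI+LPS none of the 8 passed as lower, where 8.9% of all probes tested did. There 3 passed as higher, where 8.2% of all probes did. The member with the largest LPS response was one of the 8. Its log2 levels were 1.57 with DMSO, 5.09 ± 0.19 with AdipoAI, 13.61 ± 0.24 with LPS and 13.53 ± 0.15 with AdipoAI+LPS (SD, n = 3). Its difference of -0.08 between AdipoAI+LPS and LPS did not pass the limma test (adjusted p = 0.82).

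In limma's test of DMSO vs AdipoAI, 22 members (13.7%) were higher with AdipoAI, where 6.92% of all probes tested were higher, and 7 (4.35%) were lower, where 7.53% were lower. Of the 231 comparison probes, 29 (12.6%) were higher and 3 (1.3%) lower. The DMSO arrays also chose the members. Of the 22, 7 were on with AdipoAI on all 3 arrays, 7 on 1 or 2 and 8 on none. Those 8 were not well above background on any of the 6 arrays, so their calls are not differences in measured RNA. All 7 that passed as lower were not well above background on any of the 6 arrays, so no fold is given for them. The count of lower members was 4 without DMSO 2, and between 4 and 8 over the arrays left out in turn. The median difference over the members was 0.095, and -0.026 over all probes tested. It was 0.31 with a 75th percentile scaling and -0.0013 in the authors' table, so its sign depends on the scale. At the study's threshold 19 members were higher, against 1.07% of all probes, and 2 lower, against 0.745%. With normexp background correction 8 members were higher, where 2543 of the 33692 probes tested were, a larger share than of the members.

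ASMM10P037160 had the largest rise with AdipoAI alone. Its log2 intensity was 1.10, 2.36 and 1.09 on the DMSO arrays and 7.11, 7.22 and 7.28 on the AdipoAI arrays. With LPS it was 4.73, 4.44 and 4.74, and with AdipoAI+LPS it was 7.66, 7.25 and 7.06. Its AdipoAI arrays lay above its LPS arrays, and its AdipoAI and AdipoAI+LPS arrays overlapped. AdipoAI was at least 15.3-fold higher than DMSO, with a fitted log2 difference of 5.69 (SE 0.30, limma adjusted p = 1.8e-06). AdipoAI+LPS was 2.69 above LPS on the log2 scale (SE 0.30, limma adjusted p = 0.000195), the largest rise among the members in that comparison. AdipoAI+LPS differed from AdipoAI by 0.12 (SE 0.30, limma adjusted p = 0.81).

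**Figure D2:**
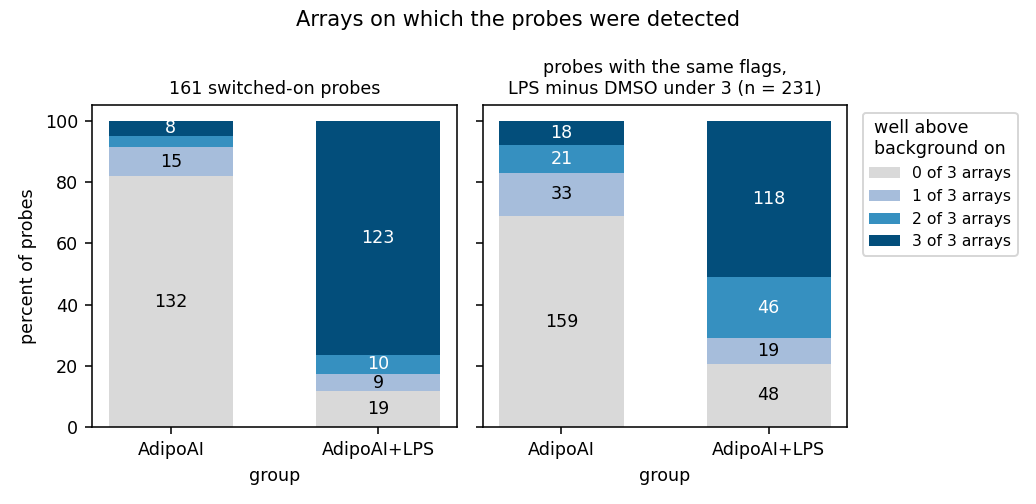
Bars give the percent of probes that were well above background on 0, 1, 2 or 3 of the 3 arrays with AdipoAI and with AdipoAI+LPS; numbers in the bars count probes. Left, the 161 members; right, the 231 probes with the same flags and an LPS minus DMSO difference under 3. Of the members, 132 were on no AdipoAI array and 123 were on all 3 AdipoAI+LPS arrays.

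LPS still raised most of these transcripts in cells that had first received AdipoAI. The comparison of AdipoAI with AdipoAI+LPS shares no array with the choice of members. In it, 145 members (90.1%) were higher with AdipoAI+LPS, where 13.3% of all probes tested were higher. Some of these 145 were not well above background on any array of either group, ASMM10P033945 among them. Such calls are not differences in measured RNA. Of the 231 comparison probes, 129 (55.8%) were higher. No member was lower at an adjusted p under 0.05 in limma or at an unadjusted p under 0.05. Of all probes, 19.0% were lower by the adjusted p. The median log2 difference was 3.08 (range -0.66 to 9.23), against -0.03 over all probes tested. It was above 0 for 156 members, and every AdipoAI+LPS array was above every AdipoAI array for 147, against 18.2% of all probes. The reverse held for 1 member, against 24.5% of all probes. At the study's threshold 133 members were higher, against 4.04% of all probes, and none lower, against 2.88%.

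Of the 132 members that were off on every AdipoAI array, 96 were on with AdipoAI+LPS on all 3 arrays. Among the 26722 probes off on every AdipoAI array, 2.18% came on in this way. AdipoAI+LPS was at least 1.07-fold to at least 128-fold higher for the 96, with a median of at least 4.42-fold. With scan as a block 129 members were higher, against 8.64% of all probes in that fit. Within the second scan, where only 1 AdipoAI array stands for its group, 115 were higher, 114 of them among the 145, against 3.84% of all probes.

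The 16 members that did not pass were mostly those not detected with AdipoAI+LPS. Of these 16, 10 were off on all 3 AdipoAI+LPS arrays and 5 were on 1 or 2 of them. The remaining one, ASMM10P037160, was on all 3 and was already at that level with AdipoAI alone.

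Across the 161 members, the LPS minus DMSO difference and the AdipoAI+LPS minus AdipoAI difference were correlated (Pearson r = 0.75), and the 2 differences have no array in common. The points are probes of the same 12 arrays and no replicates of a condition, so r is a description. The difference was smaller after AdipoAI for 143 members. The members were chosen for a large LPS minus DMSO difference, so that count is also a description.

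**Figure D3:**
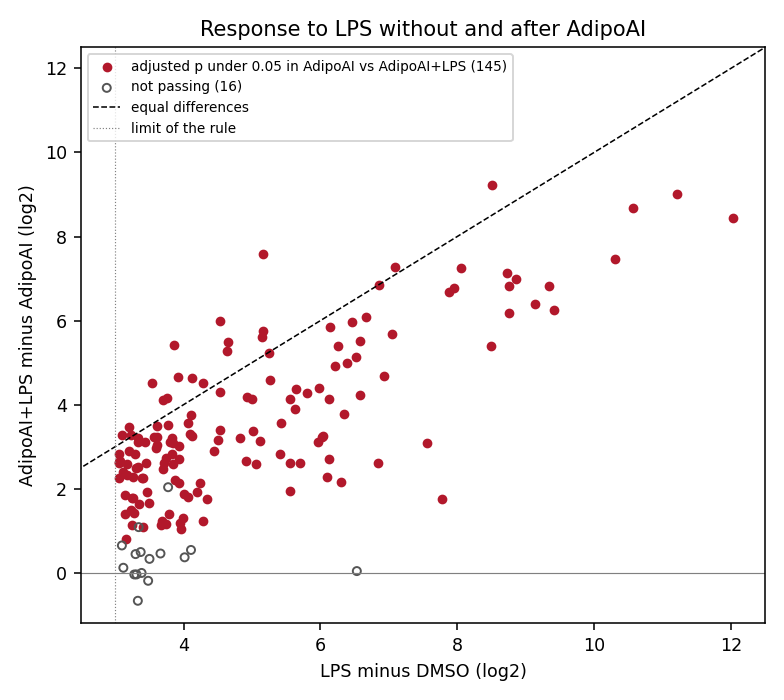
Each point is 1 of the 161 probes; x, LPS minus DMSO and y, AdipoAI+LPS minus AdipoAI, both log2 differences of means of 3 arrays. Filled points passed the test in AdipoAI vs AdipoAI+LPS (145) and open points did not (16); 143 points lie below the dashed line of equal differences.

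When AdipoAI came before LPS, about as many members passed as lower than with LPS alone in the main fit as did not. With scan as a block fewer did, 49 members. The LPS arrays also chose the members, which favours a lower call. In LPS vs AdipoAI+LPS, 84 members (52.2%) were lower with AdipoAI+LPS, where 8.9% of all probes tested were lower. A further 10 members (6.21%) were higher, where 8.2% were higher, and 67 passed in neither direction. The fitted median log2 difference was -1.08, against -0.015 over all probes tested, and it was below 0 for 125 members. Sizes were measured on both sides for the 123 members well above background on all AdipoAI+LPS arrays. Their differences ranged from -4.07 to 2.69 with a median of -0.73, and 47 were lower by 1 or more and 14 by 2 or more. For the 19 members not well above background on any AdipoAI+LPS array only a bound can be given, which was 1 or more for all 19 and 2 or more for 5. Every AdipoAI+LPS array was below every LPS array for 106 members, against 19.6% of all probes, and above for 16, against 18.1%. At the study's threshold 58 were lower, against 1.1% of all probes, and 3 higher, against 1.33%.

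Both groups lie in different scans, and the LPS arrays chose the members. With scan as a block, estimated from AdipoAI 3 alone, 49 members were lower, 46 of them among the 84, and 2 were higher. In that fit 1.29% of all probes were lower and 1.8% higher. When the members were chosen without an LPS array and AdipoAI+LPS was then set against that array only, 51, 46 and 53 of 170, 169 and 160 members were lower, where 2.48%, 1.92% and 1.86% of all probes were lower. The median difference was -1.06, -0.94 and -1.15. The count of higher members was 6 without LPS 2, and between 6 and 10 over the arrays left out in turn.

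Most members stayed detectable. With AdipoAI+LPS, 123 members (76.4%) were on all 3 arrays, against 95.0% of the 28052 probes that were on all 3 LPS arrays. A further 10 were on 2 arrays, 9 on 1 and 19 on none. These 19 are 11.8% of the members, where 0.734% of the 28052 probes were lost on all AdipoAI+LPS arrays. Of the comparison probes with a smaller LPS response, 48 of 231 (20.8%) were lost, and 19.9% were lower in the test. By array, 136, 131 and 131 members were on for AdipoAI+LPS 1, 2 and 3.

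All 19 lost members passed the test as lower. Their flags, on with LPS and off with AdipoAI+LPS, favour that call, so the counts of lower members split by flag are a description. LPS was at least 2.12-fold to at least 49.6-fold higher than AdipoAI+LPS, with a median of at least 2.96-fold. Their median log2 level with LPS was 4.86, against 6.34 for the 123 that stayed on. Of the 19 members on 1 or 2 AdipoAI+LPS arrays, 15 were lower. Of the 123 that stayed on, 50 were lower, by 1.64-fold to 16.8-fold with a median of 3.01-fold, and 10 were higher. Over all probes tested, 8.9% were lower and 8.2% higher, so the 10 are near the share of all probes. With scan as a block, 27 of the 123 were lower, where 433 of the 33692 probes tested were.

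ASMM10P033945 was the brightest of the lost members. Its log2 intensity was 9.01, 8.82 and 8.96 on the LPS arrays and 3.16, 3.11 and 2.54 on the AdipoAI+LPS arrays, none of which was well above background. On the DMSO arrays it was 1.10, 1.14 and 1.20, and on the AdipoAI arrays 1.09, 1.10 and 1.34. LPS was at least 49.6-fold higher than AdipoAI+LPS (limma adjusted p = 1.26e-08). None of the other 9 arrays was well above background. The AdipoAI+LPS arrays lay above the AdipoAI arrays in fitted value (limma adjusted p = 1.17e-05), but no fold is given between groups that were both dim.

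ASMM10P053881 had the largest fall among members that stayed on all AdipoAI+LPS arrays. It measured 8.80, 8.51 and 8.60 on the log2 scale with LPS and 4.39, 4.54 and 4.75 with AdipoAI+LPS. On the DMSO arrays it was 1.10, 1.05 and 1.06, and on the AdipoAI arrays 1.14, 1.14 and 2.16, none of them well above background. Its log2 difference was -4.07 (SE 0.24, limma adjusted p = 2.23e-06), a 16.8-fold lower level. AdipoAI+LPS remained at least 2.11-fold above AdipoAI.

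**Figure D4:**
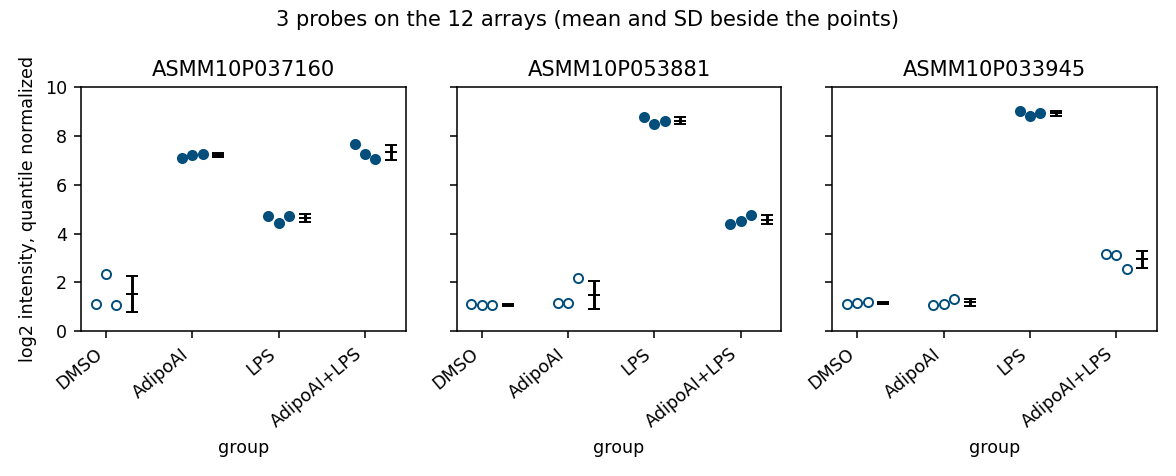
Quantile-normalized log2 intensity of 3 probes on the 12 arrays by group; points are single arrays, filled where the probe was well above background on all 3 arrays of the group, and bars are mean and SD. ASMM10P037160 was near 7 with AdipoAI with or without LPS, while ASMM10P053881 and ASMM10P033945 were high with LPS and much lower with AdipoAI+LPS.

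The members were also read by how bright they were with LPS. Of the 76 members with an LPS level under 6 on the log2 scale, 32 were lower and 8 higher, with a median difference of -0.73. Of the 67 from 6 to under 9, 36 were lower and 2 higher, with a median of -1.17. Of the 18 members at 9 or more, 16 were lower and none higher, with a median of -1.65. Over all probes tested, 8.9% were lower and 8.2% higher. The LPS arrays set both the level and the difference and also chose the members, so a larger fall at a higher level is favoured. The trend across levels is therefore a description and was not tested.

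These 18 bright members were at 9.05 to 13.61 with LPS and 7.21 to 13.53 with AdipoAI+LPS. Both states are far above the floor, and all 18 were on with AdipoAI+LPS on all 3 arrays. The 16 that were lower fell to a level 1.67-fold to 10.9-fold below that with LPS, with a median of 3.30-fold. Their LPS and AdipoAI+LPS arrays did not overlap, as for 19.6% of all probes tested. The 16 were picked by a lower call, which favours this. With scan as a block 11 of the bright members were lower, where 433 of the 33692 probes tested were. AdipoAI alone left 15 of the 18 off on all its arrays.

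**Figure D5:**
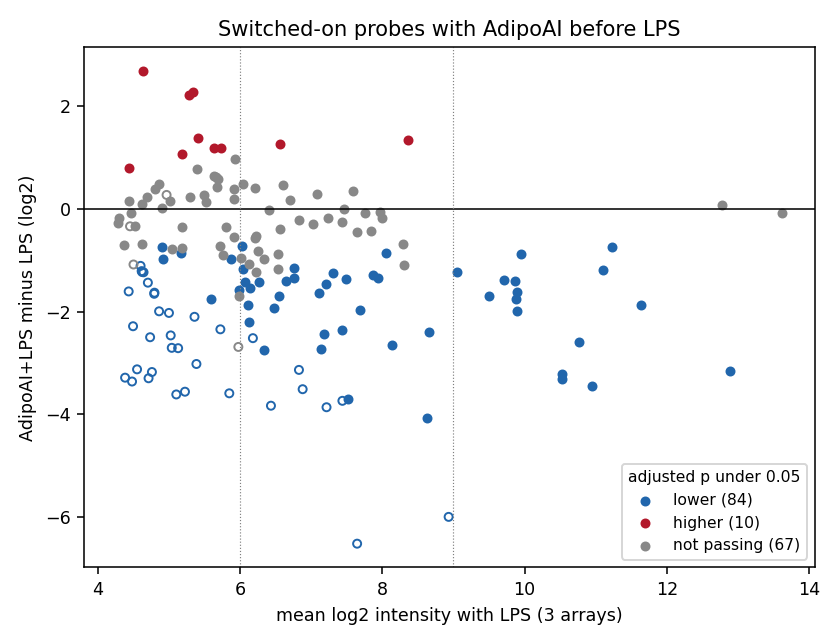
Each point is 1 of the 161 probes; x, mean log2 intensity on the 3 LPS arrays and y, AdipoAI+LPS minus LPS on the log2 scale. Colours give the result of the test (84 lower, 10 higher, 67 not passing), open points were not well above background on all 3 AdipoAI+LPS arrays, and dotted lines mark levels 6 and 9.

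The calls of both comparisons with AdipoAI+LPS can be read together. Of the 84 members lower than with LPS alone, 71 were still higher than with AdipoAI alone, and 13 were not. The 71 include members not well above background with AdipoAI or with AdipoAI+LPS, such as ASMM10P033945. Of the 10 that were higher than with LPS alone, 9 were also higher than with AdipoAI alone. Over all probes tested, 13.3% were higher in AdipoAI vs AdipoAI+LPS. Of the 22 members that passed as higher with AdipoAI alone, not all of them detected there, 4 were lower, 6 higher and 12 without a call in LPS vs AdipoAI+LPS. Over all probes tested, 8.9% were lower and 8.2% higher in that comparison. The comparisons share arrays, so these counts are not independent. The difference between the AdipoAI effects with and without LPS contains the LPS minus DMSO difference that the rule used, with its sign turned, so calls of a lower effect are favoured by the choice of members and their count is only a description. It was lower with LPS in 65 members, against 1.56% of all probes and 25 of the 231 comparison probes (10.8%), and higher in 2, against 1.53% of all probes. When the members were chosen without 1 DMSO and 1 LPS array and called against those arrays alone, for each of the 9 pairs, between 9 and 14 of 170 to 186 members had a lower effect, against 0.0386% to 0.119% of all probes, and at most 1 a higher.

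For comparison, LPS also raised transcripts that were already detected in resting cells. There were 330 probes well above background on all DMSO and all LPS arrays with an LPS minus DMSO difference of at least 3. After AdipoAI, LPS still raised 327 of them (99.1%), against 13.3% of all probes tested, with a median log2 difference of 3.22. In LPS vs AdipoAI+LPS, 113 (34.2%) were lower, against 8.9% of all probes, and 26 (7.88%) higher, against 8.2%. The median difference there was -0.20. With AdipoAI alone, 110 (33.3%) were higher, against 6.92% of all probes, and 69 (20.9%) lower, against 7.53%. At an LPS level of 9 or more, 87 of 257 such probes (33.9%) were lower, with a median of -0.19, beside 16 of 18 (88.9%) of the switched-on members. The 18 had LPS minus DMSO differences of 6.94 to 12.04, whereas the 257 had only to reach 3, so the sets were not matched on that difference. The difference between these sets was not tested, since both were chosen on the LPS and DMSO arrays.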

How the data were processed

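RNA from 12 samples of RAW264.7 cells was hybridised to 1-colour (Cy3) Agilent arrays, 3 for each of 4 groups. The deposited scanner files hold a background-subtracted processed intensity and a flag, well above background or not, for every spot. They were made with Agilent Feature Extraction 11.0.1.1, per the submitters' processing notes. The authors also deposited a table of log2 normalized values, whose lowest value was 2.32. That table was used as an alternative, and none of its columns was left without a sample.

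Of 60915 probes, 221 were left out because of outlier flags. The log2 processed intensity was quantile normalized between arrays, after which the lowest value was 1.03. limma 3.58.1 in R 4.3.3 was fitted to all 12 arrays and 4 groups together, over the 33692 probes that 3 or more arrays showed well above background. A call was a Benjamini-Hochberg adjusted p under 0.05 over all of these probes. The study's threshold, an unadjusted p under 0.05 with a log2 fold change of 1.5 or more in either direction, was an alternative, as were a 75th percentile scaling, normexp background correction with an offset of 50, scan or replicate number as a block, and leaving out each array in turn. The code was tested on simulated data. Figures were drawn with matplotlib 3.10.9 in Python 3.11.15.

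A fold against a group that was not well above background on any array is a lower bound. The dim side was set, on each array, to the higher of the probe's own value and the lowest value among probes well above background there. That lowest value was between 3.08 and 3.69 on the log2 scale. The number of arrays limits the precision.

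The members, the lists and the tests were chosen with earlier results of these data known. The probe identifiers were not matched to genes, so planned gene lists and cell type markers could not be applied and the macrophage identity of the cells was not checked. The probes named were the largest rise in DMSO vs AdipoAI, the largest rise and, among members well above background on all AdipoAI+LPS arrays, the largest fall in LPS vs AdipoAI+LPS that passed the test, and the brightest probe with LPS that was not well above background on any AdipoAI+LPS array.

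Same-numbered arrays of different groups did not deviate together. Their correlations of deviations from the group means were between -0.19 and 0.11 over 18 pairs, so the replicate number was not taken to pair the samples. Nothing in the labels says that the cultures were grown separately, so p-values measure the spread between these arrays.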

Additional observations from a re-analysis of the deposited data

Results flagged for a closer look

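The 67 members that passed limma's interaction test, 65 with a lower and 2 with a higher AdipoAI effect in the presence of LPS, were singled out because the effect differed between the conditions (adjusted p under 0.05). With scan as a block 58 were called, 53 of them shared, and leaving out each array in turn gave between 58 and 68. The contrast contains the LPS minus DMSO difference that chose the members, so neither these counts nor their direction are evidence beyond the choice, and the scan and left-out fits keep the same choice. With members chosen on other DMSO and LPS arrays than those tested, between 9 and 14 had a lower effect. The fitted difference of the AdipoAI effects was -3.00 on the log2 scale for ASMM10P037160, -4.48 for ASMM10P053881 and -6.02 for ASMM10P033945. These are not measured sizes, because DMSO was not well above background for any of the 3 probes, nor AdipoAI for the last 2, nor AdipoAI+LPS for ASMM10P033945.

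Outside the 161 members, 2 probes named as lincRNAs met the rest of the rule, of 1827 so named. Their log2 levels were 6.56 and 6.85 with LPS and 6.21 and 7.37 with AdipoAI+LPS. The differences of -0.35 and 0.53 did not pass limma's test (adjusted p = 0.39 and 0.66).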

How the results depend on the processing

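The rule gave 177 probes with a 75th percentile scaling, 110 from the authors' table, 19 with normexp, 280 with a limit of 2, 84 with a limit of 4 and between 160 and 176 when a DMSO or LPS array was left out. The normexp run differed in its input, the median spot signal with its median background, and in an offset of 50. Which of these changed the count was not tested. In AdipoAI vs AdipoAI+LPS the median difference was 0.60 with normexp, 2.52 in the authors' table, 2.84 with scan as a block and within the second scan, and between 2.94 and 3.11 with an array left out. Over the 96 members off on all AdipoAI arrays and on with AdipoAI+LPS it was 2.14 with the dim side at its bound and 3.85 as fitted. The number of higher members was between 140 and 145 with an array left out, and no member was lower in any setting run.

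In DMSO vs AdipoAI the higher members numbered 8 with normexp, 13 for the members chosen without DMSO 1 or DMSO 3 and called against that array alone, and between 18 and 25 with an array left out. The lower members numbered 0 with normexp, 1 in the authors' table, 4 in the 6 arrays alone, within the first scan, and against DMSO 1 alone, and 2 at the study's threshold. With an array left out they numbered between 4 and 8. The median was 0.31 with the 75th percentile, 0.011 with normexp, -0.0013 in the authors' table and between 0.064 and 0.11 with an array left out. Detection on at least 2 or at least 1 AdipoAI array gave 14 and 29 members.

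In LPS vs AdipoAI+LPS the higher members numbered 16 with normexp, 2 with scan as a block, 3 at the study's threshold, and 4, 3 and 5 against LPS 1, 2 and 3 alone. The lower members numbered 49 with scan as a block, 51, 46 and 53 against single LPS arrays, and between 72 and 89 with an array left out, and the higher between 6 and 10. The median was -0.39 with normexp and between -1.21 and -0.99 with an array left out. Counting members off on at least 1 AdipoAI+LPS array gave 38 in place of 19. For the interaction, the members with a higher AdipoAI effect with LPS numbered 6 with normexp, 5 in the authors' table, 1 without a filter, with the replicate block and with scan as a block, and between 0 and 3 with an array left out, and those with a lower effect between 58 and 65. Chosen without 1 DMSO and 1 LPS array and called against that pair, a choice added after seeing the data like the other single-array calls, the lower numbered 9, 10, 11, 12 or 14 and the higher 0 or 1. The cause of these shifts was not tested. The 3 named probes kept their direction and their call in every setting run.

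With the replicate number as a block, 143 members were higher in AdipoAI vs AdipoAI+LPS, 20 higher and 6 lower in DMSO vs AdipoAI, and 9 higher and 80 lower in LPS vs AdipoAI+LPS. In the same order, 4115, 1807, 1937, 2342 and 2426 of all probes tested passed in that fit. A filter of well above background on all 12 arrays leaves no member and could not be run. The 3 arrays in each group limit the precision, and most DMSO and AdipoAI values are not well above background.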
